A study of Mus musculus with 8 samples.

Results

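Knockout and wild-type mice were compared across both sorted glomerular cell types at once, with the cell type as a covariate. This gives each gene 1 genotype effect over endothelium and podocytes together, which a difference in 1 cell type alone can also produce. The comparison used 8 of the 8 libraries of the series, 4 knockout and 4 wild type, chosen by genotype label alone. RNA with poly(A) tails was sequenced from mouse kidney cells separated by fluorescence-activated sorting. The 4 groups, each of 2 libraries numbered 2 and 3 in the labels, were EMCN+/+ endothelium, EMCN-/- endothelium, EMCN+/+ podocytes and EMCN-/- podocytes. The labels gave no age, strain, allele design, treatment or sorting marker, and did not state whether the endothelium and podocyte libraries of 1 number came from 1 animal. If they did, the 4 knockout libraries represent 2 animals, and p-values measure only the spread between these libraries. Expression is given as CPM, read counts scaled to a common library size with trimmed-mean (TMM) factors, and differences as log2 fold changes of knockout over wild type from edgeR's quasi-likelihood test. Where levels are set against each other, the wild-type libraries come first, and each pair is in the order library 2, library 3.

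Endomucin, the product of Emcn, is a heavily O-glycosylated sialomucin on the luminal surface of capillary and venous endothelium, and a part of the endothelial glycocalyx. In the glomerulus, fenestrated endothelial cells and podocytes face each other across a shared basement membrane and form the filtration barrier. Podocytes supply VEGF-A to the endothelium and are not known as a source of endomucin.

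The libraries held 10478956 to 17386042 counts over the 17326 genes with a value in every library, and 16477 of these genes were tested. The summed level of 19 endothelial markers was 11931 to 15010 CPM in the endothelium libraries and 945 to 1453 CPM in the podocyte libraries. Podocyte markers had complete values for 14 of 20 listed. Their sums were 10428 to 22195 CPM in podocytes and 1938 to 3337 CPM in endothelium, so both labels matched their markers. Distal tubule markers summed to 4757 to 25973 CPM and were present in both cell types, lowest in knockout endothelium library 2. The 15 mitochondrial genes took 10.1% to 26.2% of counts. Xist was detected in all 8 libraries at 86.9 to 145.6 CPM. Because these are bulk libraries, fewer cells of a type and less RNA per cell cannot be told apart in any of the values below.

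Emcn (Entrez 59308, chr3:137341062-137431069, mm10 coordinates from RefSeq GRCm38.p6) was the only gene past an adjusted p of 0.05, 0.00607% of the 16477 tested. Its counts were 25953 and 25261 in wild-type endothelium, 2460 and 2081 in knockout endothelium, 1143 and 495 in wild-type podocytes, and 90 and 67 in knockout podocytes. On the scaled level these were 1972 and 1828 CPM against 173 and 179 CPM in endothelium, and 74.1 and 35.9 CPM against 5.59 and 4.94 CPM in podocytes. Every knockout library lay below every wild-type library of its cell type, with no overlap. Emcn fell by 3.41 on the log2 scale (SE 0.23), 10.6-fold, with an adjusted p of 0.000246 by edgeR. The change was -3.43 in endothelium and -3.38 in podocytes, and the interaction between genotype and cell type had an unadjusted p of 0.921. The podocyte libraries that held Emcn reads also held endothelial marker RNA. Its sums were 1453 and 1099 CPM in wild type and 945 and 1031 CPM in knockout. These sums include Emcn itself and Cldn5, which was more abundant in wild-type podocytes than in wild-type endothelium. Cldn5 was at 404 and 284 CPM in wild-type podocytes, 182 and 345 CPM in knockout podocytes, and 109 and 126 CPM in wild-type endothelium. The part of endothelial RNA in the podocyte Emcn values was not tested. Reads from the Emcn locus were still counted in all 4 knockout libraries. Gm38650 overlaps Emcn in the annotation, and the labels do not state whether counting used strand.

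**Figure D1:**
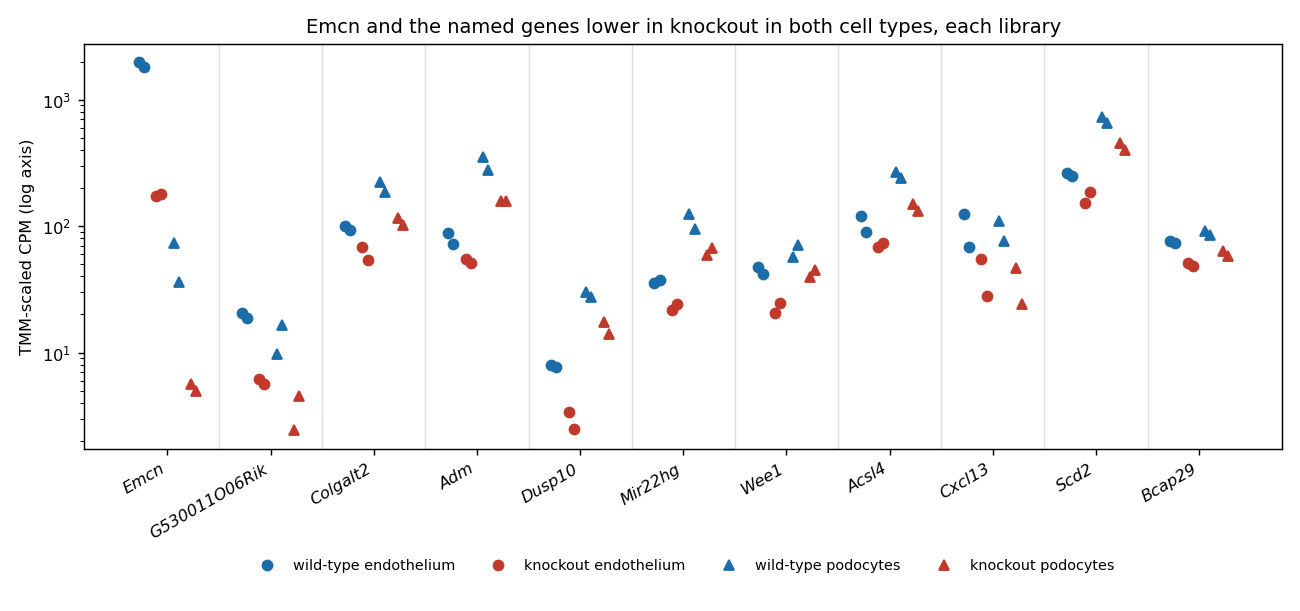
Scaled expression (CPM, log axis) of Emcn and of the 10 named genes lower in knockout in both cell types, 1 point per library, blue for wild type and red for knockout, circles for endothelium and triangles for podocytes. Within each cell type both red points lie below both blue points for every gene shown, and the drop of Emcn from 1972 and 1828 CPM to 173 and 179 CPM in endothelium is the widest gap.

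Beyond Emcn the genotype difference was not resolved gene by gene. The next smallest adjusted p was 0.311, for G530011O06Rik, and the third was 0.523. At an unadjusted p under 0.05, 872 genes were higher in knockout (5.29%) and 691 were lower (4.19%). The higher count was 489 without knockout endothelium 2, 574 without wild-type podocyte 2, 580 without wild-type endothelium 3 and 1369 without wild-type podocyte 3. The lower count was 304 without wild-type podocyte 2, 441 without wild-type endothelium 2 and 1097 without knockout podocyte 2. With DESeq2 in place of edgeR, 21 genes passed the adjusted threshold, among them 6 of the 10 named higher genes and 9 of the 10 named lower genes described below. Each cell type tested alone also gave 1 gene, Emcn.

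The direction of the genotype difference was shared between cell types more often than not. Of the 16477 genes, 10491 (63.7%) had log2 fold changes of the same sign in endothelium and podocytes and 5983 had opposite signs. Over these genes the endothelial and podocyte log2 fold changes had a Pearson correlation of 0.24 and a Spearman correlation of 0.30. This is a description across genes, which are not independent, and abundance entered both values. In the most abundant quintile of genes the Pearson correlation was 0.12.

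Separation of libraries gave a stricter view of the same pattern. In 946 genes (5.74%) the knockout libraries of each cell type both exceeded the 2 of wild type, and in 995 genes (6.04%) both lay below. In 494 genes the libraries also separated in each cell type, but in opposite directions, 215 of them lower in endothelium and 279 lower in podocytes. An unadjusted p under 0.05 in each cell type separately was reached by 64 genes. Of these, 59 had the same direction (0.358% of genes tested), 32 higher and 27 lower. The other five were Gm8378, Stab1, Smgc, Dalrd3 and Cobll1, with opposite directions. The number of 59 moved with single libraries: it was 26 without knockout endothelium 2, 29 without wild-type podocyte 2, 97 without wild-type endothelium 2, 121 without wild-type podocyte 3 and 128 without knockout podocyte 2. No gene passed an adjusted p of 0.05 for the interaction by edgeR, and 428 genes (2.6%) had an unadjusted interaction p under 0.05. DESeq2 and limma gave no gene either.

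**Figure D2:**
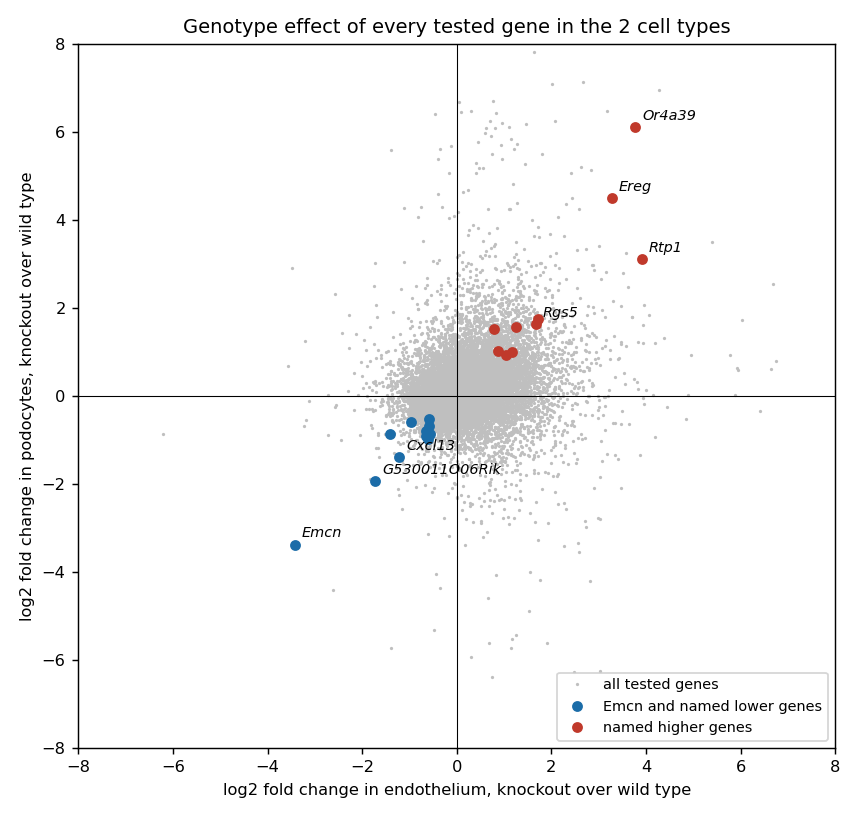
Log2 fold change of knockout over wild type in endothelium (x axis) against podocytes (y axis), 1 grey point per tested gene, with Emcn and the named lower genes in blue and the named higher genes in red. Emcn lies at -3.43 and -3.38, apart from the cloud, and the named genes lie in the lower left and upper right because they were picked for the same direction in both cell types.

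The direction a gene took depended on its abundance. When genes were ranked by mean CPM, which is not corrected for length, and divided into quintiles, the median log2 fold change ran from 0.55 in the least abundant quintile through 0.41, 0.06 and -0.12 to -0.20 in the most abundant. Both cell types had the slope, from 0.75 to -0.23 in endothelium and from 0.38 to -0.15 in podocytes. Of the 946 genes with higher, separated knockout libraries, 352 and 358 were in the lower pair of quintiles and 9 in the top quintile. Of the 995 with lower, separated libraries, 566 were in the top quintile. There, 17.2% of all genes were separated and lower, 11.7% were lower at an unadjusted p under 0.05, and 88.0% had a lower fitted value. Abundant gene groups are therefore set beside these top-quintile shares in the paragraphs that follow.

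Genes not known for a role in either cell type showed the low-abundance side of this slope. The 319 tested olfactory receptor genes, which encode odorant-sensing receptors, summed to 463 and 258 CPM in wild-type endothelium and 669 and 577 CPM in knockout endothelium. In podocytes the sums were 192 and 359 CPM in wild type and 330 and 419 CPM in knockout. The 2 genotypes did not overlap in endothelium and overlapped in podocytes. Of 432 olfactory receptor genes with complete values, the low-count filter kept these 319. The filter asks for enough counts in only as many libraries as 1 group holds. A gene could thus be kept through the group where it was high, which limits the counts that follow. In all, 271 of the 319 had a higher fitted value in knockout, with a median log2 fold change of 0.63 beside 0.01 for all tested genes. The least abundant quintile of genes had 2598 of 3296 higher, with a median of 0.55. Under cyclic loess the olfactory median was 0.16, with 14 genes separated and higher and 8 lower, against 37 and 0 with TMM.

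Scaling bore on all of these counts. With library size alone in place of TMM, the median over all genes was 0.23, and 1615 genes were higher against 54 lower at an unadjusted p under 0.05, 96.8% higher against 55.8% with TMM. Under a cyclic loess normalization, chosen after the slope was seen and built to remove any trend with abundance, the median of the lowest quintile was -0.05 in endothelium and -0.04 in podocytes. Separated genes then numbered 641 higher and 569 lower, with 637 opposite. Emcn remained the only gene past the threshold under both.

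**Figure D3:**
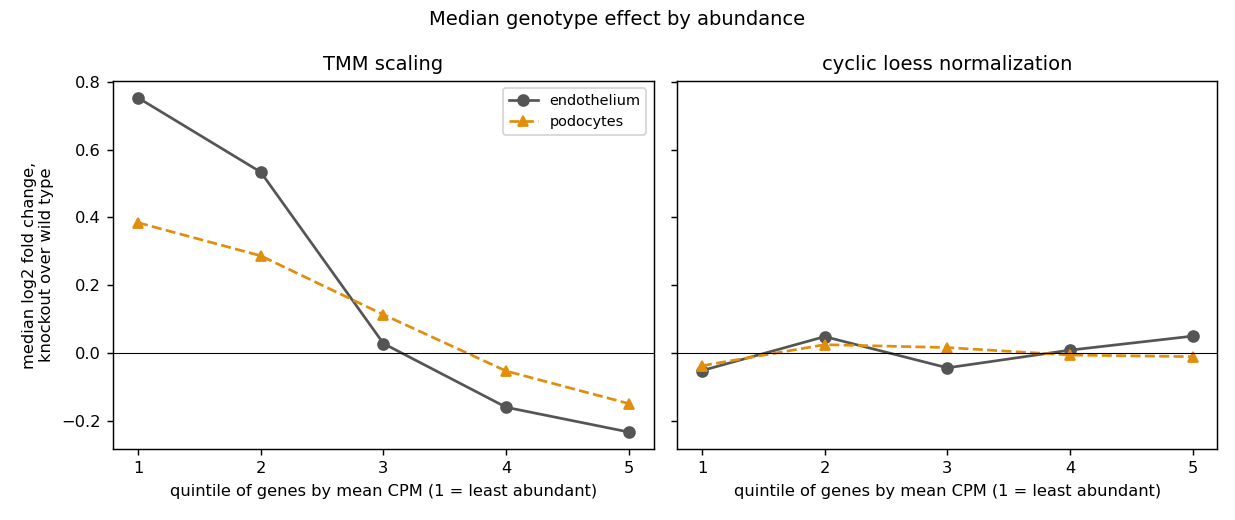
Median log2 fold change of knockout over wild type for quintiles of genes ranked by mean CPM, in endothelium (grey circles) and podocytes (orange triangles), with TMM scaling on the left and cyclic loess on the right. With TMM both lines fall from 0.75 and 0.38 to -0.23 and -0.15, and with cyclic loess both stay close to 0.

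The 10 genes of smallest p among those lower and separated in both cell types had functions in signalling, lipid metabolism and matrix modification. None passed the adjusted threshold, and the rule picked them for direction and separation, so their agreement between cell types is not a finding. G530011O06Rik, an X-linked transcript (chrX:169975043-169978917) that overlaps Mid1, had the second-smallest p of all genes. It was at 20.6 and 18.7 CPM in wild-type endothelium, 6.20 and 5.59 CPM in knockout endothelium, 9.79 and 16.5 CPM in wild-type podocytes, and 2.42 and 4.50 CPM in knockout podocytes. The level in every knockout library was below the level in every wild-type library of either cell type. Its log2 fold change was -1.83 (SE 0.28), with an adjusted p of 0.311 by edgeR and of 0.0647 under cyclic loess. Mid1 itself, which encodes a ubiquitin ligase, was at 5.59 to 8.74 CPM in all 8 libraries, with a log2 fold change of -0.17 (SE 0.51) and overlapping genotypes.

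Dusp10 encodes a phosphatase that inactivates the stress kinases p38 and JNK. Its level was 7.98 and 7.74 CPM in wild-type against 3.38 and 2.49 CPM in knockout endothelium, and 30.1 and 27.4 CPM against 17.5 and 14.0 CPM in podocytes. The log2 fold change was -1.12 (SE 0.22). Wee1, the kinase that holds CDK1 inactive before mitosis, was at 47.3 and 41.8 CPM against 20.6 and 24.8 CPM in endothelium, and at 56.8 and 71.4 CPM against 39.9 and 44.9 CPM in podocytes. Its log2 fold change was -0.78 (SE 0.16).

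Adm (chr7:110627657-110629820) encodes adrenomedullin, a vasodilator peptide that also tightens endothelial junctions. It was more abundant in the podocyte libraries, at 352 and 275 CPM in wild type and 159 and 157 CPM in knockout. In endothelium it was at 88.4 and 72.5 CPM against 54.7 and 51.1 CPM. The knockout libraries of each cell type were alike, and the log2 fold change was -0.80 (SE 0.16). Cxcl13, the chemokine that draws B cells to follicles, was at 124 and 68.6 CPM in wild-type and 54.6 and 27.9 CPM in knockout endothelium, and at 109 and 76.1 CPM and 46.5 and 24.2 CPM in podocytes. The 2 libraries of each group were far apart, and the lower wild-type endothelium library was close to the higher knockout one. Its log2 fold change was -1.30 (SE 0.29), with an adjusted p of 0.523 by edgeR. The adjusted p was 0.0102 with the replicate number as a block and 0.517 with the libraries of 1 number and genotype summed, and Cxcl13 was among the 21 genes past the threshold with DESeq2.

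A pair of lipid enzymes was in this set. Acsl4 activates polyunsaturated fatty acids for incorporation into phospholipids, and was at 121 and 90.3 CPM against 68.3 and 73.5 CPM in endothelium and 267 and 241 CPM against 149 and 131 CPM in podocytes. Scd2, a stearoyl-CoA desaturase that makes monounsaturated fatty acids, was at 264 and 248 CPM against 153 and 186 CPM in endothelium and 730 and 652 CPM against 456 and 399 CPM in podocytes. Their log2 fold changes were -0.72 (SE 0.15) and -0.64 (SE 0.15). The others were Colgalt2, a collagen galactosyltransferase, Mir22hg, the host transcript of miR-22, and Bcap29, an endoplasmic reticulum membrane protein, with log2 fold changes of -0.78, -0.73 and -0.56.

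Most of these lower genes were more abundant in podocytes than in endothelium, and the podocyte marker sums of wild-type and knockout podocytes did not overlap. The summed podocyte markers were 22195 and 14676 CPM in wild-type podocytes and 10428 and 13001 CPM in knockout podocytes. In endothelium they were 3337 and 1938 CPM in wild type and 2249 and 2134 CPM in knockout. The top quintile, where 88.0% of genes had a lower fitted value and 17.2% were separated and lower, holds 11 of the 14 markers tested. Of the 14, 13 had a lower fitted value, with a median log2 fold change of -0.54, against -0.20 in the top quintile of genes. Without wild-type endothelium 2 that median was -0.26, without wild-type podocyte 2 it was -0.31, and under cyclic loess it was -0.19. Vegfa, the growth factor that podocytes supply to endothelium, was at 1410 and 1012 CPM against 658 and 787 CPM in podocytes, and at 167 and 141 CPM against 116 and 105 CPM in endothelium. It was the 1 marker of the 14 separated in both cell types, with a log2 fold change of -0.61 (SE 0.17) and an unadjusted p of 0.0043. Under cyclic loess it was -0.33 with an unadjusted p of 0.0723, with library size alone it was -0.40, and under neither was a marker separated and lower in both. The part of the podocyte marker difference in the lower genes was not tested.

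The 10 genes of smallest p among those higher and separated in both cell types included a water channel, growth factors and several transcripts near the detection limit. None passed the adjusted threshold. Aqp1 (chr6:55336299-55348555) is the water channel of proximal tubule and some endothelia. Its level was 126 and 221 CPM in wild-type endothelium, 518 and 311 CPM in knockout endothelium, 228 and 279 CPM in wild-type podocytes, and 1084 and 428 CPM in knockout podocytes. Library 2 was the higher knockout library in both cell types. The log2 fold change was 1.42 (SE 0.30). Proximal tubule marker RNA summed to 206 and 302 CPM, then 220 and 173 CPM, in wild-type and knockout endothelium, and to 503 and 1181 CPM, then 2239 and 389 CPM, in podocytes. The endothelial sums did not separate by genotype while Aqp1 did, and the highest sum and the highest Aqp1 level were in the same knockout podocyte library. These sums cover only the 9 of 20 listed markers with complete values. The part of tubule RNA in the Aqp1 values was not tested.

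Bst1 encodes CD157, a membrane-anchored ADP-ribosyl cyclase. It was at 7.22 and 9.70 CPM against 15.3 and 14.1 CPM in endothelium, and at 48.3 and 53.4 CPM against 189 and 101 CPM in podocytes, with a log2 fold change of 1.18 (SE 0.23). Bmp6, a ligand of the bone morphogenetic protein family that endothelial cells secrete, was at 26.2 and 24.2 CPM against 51.4 and 41.2 CPM in endothelium. In podocytes it was at 6.55 and 6.75 CPM against 17.1 and 9.81 CPM. Its log2 fold change was 0.94 (SE 0.21), and its interval overlaps Txndc5, which had a log2 fold change of -0.40.

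Rgs5, a regulator of G protein signalling and a pericyte marker, was at 0.99 and 1.23 CPM against 4.23 and 2.84 CPM in endothelium and 2.01 and 3.27 CPM against 11.3 and 4.94 CPM in podocytes. The log2 fold change was 1.64 (SE 0.38). The mural and mesangial list to which Rgs5 belongs had 7 of 10 members with a higher fitted value, 2 of them (Rgs5 and Cspg4) separated and higher in both cell types, beside 5.74% of all genes. Another member, Gata3, was separated and lower in both, at -0.53 (SE 0.20), but not with library size alone or DESeq2 size factors. The list's summed level was 792 and 550 CPM against 740 and 452 CPM in endothelium, and 1023 and 990 CPM against 1368 and 541 CPM in podocytes. The sums overlapped between genotypes in both cell types.

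Stbd1, a glycogen-binding protein, Dmp1, a matrix protein of bone and dentin, and Cntn2, a neural adhesion molecule, had log2 fold changes of 0.99, 1.08 and 1.74. Cntn2 was at 4.60 CPM or less in every library. For the last genes, Rtp1, Or4a39 and Ereg, the wild-type libraries held 3 counts or fewer, so the counts are given without a fold. Rtp1, which carries odorant receptors to the cell surface, gave 2 and 1 against 29 and 18 counts in endothelium (wild type first), and 3 and 3 against 40 and 16 in podocytes. Or4a39, an olfactory receptor, had 1 and 0 against 8 and 8, and 0 and 0 against 9 and 9. Ereg, the EGF receptor ligand epiregulin, had 1 and 0 against 4 and 7, and 0 and 2 against 20 and 31.

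**Figure D4:**
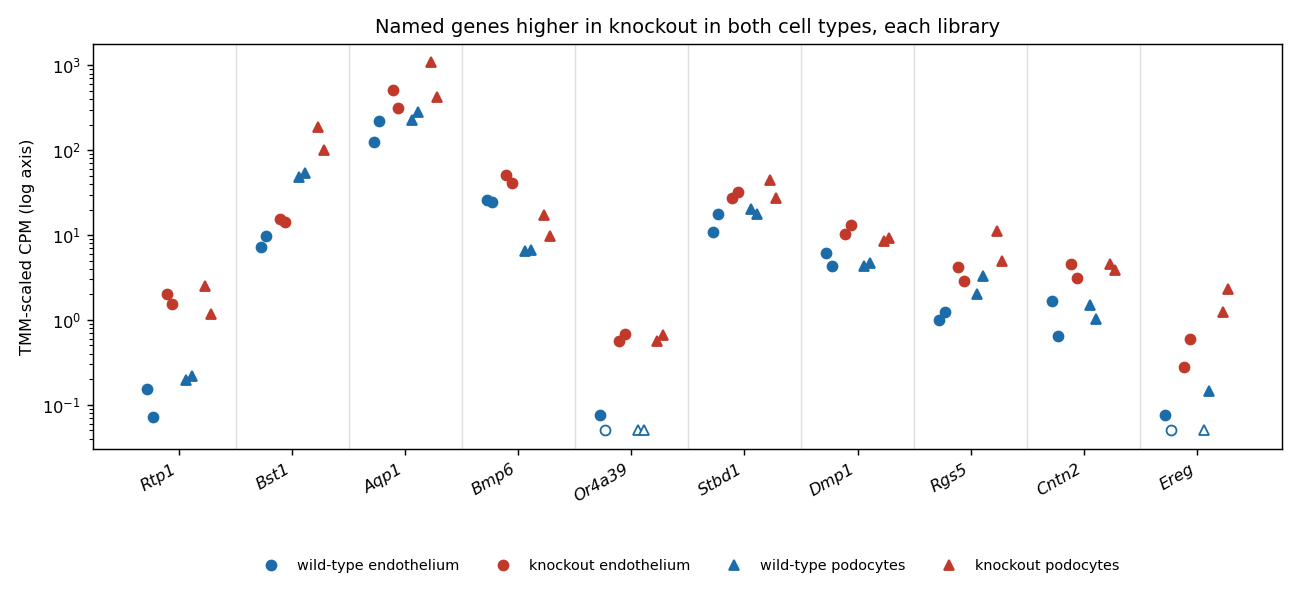
Scaled expression (CPM, log axis) of the 10 named genes higher in knockout in both cell types, 1 point per library, blue for wild type and red for knockout, circles for endothelium and triangles for podocytes. Open symbols mark libraries with 0 counts, drawn at the bottom of the axis. Both red points lie above both blue points in each cell type, and Rtp1, Or4a39 and Ereg sit near the detection limit in wild type.

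Across the settings in which they had a value, all 20 of these genes kept their direction. In the settings that kept all 8 libraries, all had an unadjusted p under 0.05, except 1 of the lower genes with library size alone. Every setting refits the libraries from which the genes were picked by small p and separation. This agreement is therefore largely fixed by the rule and is not separate evidence. A filter of at least 5 CPM on average removed 5 of the higher 10. Of the 20, 7 overlap another annotated gene, so their reads could belong in part to a neighbour.

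All tested heat shock chaperones had fitted values in the same direction. These proteins refold or hold damaged proteins and are induced together through heat shock factor 1, which binds repeated nGAAn units in their promoters. Of 22 genes listed, 16 had complete values and were tested, and all 16 had a lower fitted value in knockout in both cell types. The median log2 fold change was -0.45, with -0.60 in endothelium and -0.32 in podocytes. All 16 are in the top quintile by abundance, where 17.2% of genes were separated and lower. In this list 10 of 16 were separated and lower in both cell types, and 10 of 16 had an unadjusted p under 0.05, against 11.7%. No member passed the adjusted threshold.

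Letters of the heat shock element were common in the promoters of this list. In 14 of the 16 genes a RefSeq promoter window was available (GRCm38.p6, 250 bases before to 50 after the start), and 9 of the 14 (64.3%) held GAANNTTC or TTCNNGAA, searched on both strands. Among genes with a window, the same letters were found for 13.8% in the most abundant quintile and 15.2% of all tested genes. A gene counted if any of its windows held a match. A match describes the letters only. The list was chosen as heat shock genes, so its share describes the list and does not bear on the genotype difference. The windows below are from Hsph1 (chr5:149636287-149636586, minus strand), Hspe1 (chr1:55087898-55088197, plus strand) and Hspb1 (chr5:135887669-135887968, plus strand), which held the most matches together with Hspd1, whose window overlaps that of Hspe1 head to head. Capitals mark the matches. Matches in 1 run of capitals overlap or adjoin each other.
Hsph1: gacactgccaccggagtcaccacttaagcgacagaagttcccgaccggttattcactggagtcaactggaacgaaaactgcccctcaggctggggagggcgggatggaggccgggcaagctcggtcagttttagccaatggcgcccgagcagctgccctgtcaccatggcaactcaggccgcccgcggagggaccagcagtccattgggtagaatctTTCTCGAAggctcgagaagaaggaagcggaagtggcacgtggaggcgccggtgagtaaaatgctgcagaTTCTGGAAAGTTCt
Hspe1: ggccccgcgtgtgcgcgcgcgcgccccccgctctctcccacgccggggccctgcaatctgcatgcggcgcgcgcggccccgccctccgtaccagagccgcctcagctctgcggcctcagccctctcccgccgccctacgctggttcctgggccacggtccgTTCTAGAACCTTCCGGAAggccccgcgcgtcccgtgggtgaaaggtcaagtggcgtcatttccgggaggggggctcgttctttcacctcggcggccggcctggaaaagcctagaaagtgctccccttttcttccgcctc
Hspb1: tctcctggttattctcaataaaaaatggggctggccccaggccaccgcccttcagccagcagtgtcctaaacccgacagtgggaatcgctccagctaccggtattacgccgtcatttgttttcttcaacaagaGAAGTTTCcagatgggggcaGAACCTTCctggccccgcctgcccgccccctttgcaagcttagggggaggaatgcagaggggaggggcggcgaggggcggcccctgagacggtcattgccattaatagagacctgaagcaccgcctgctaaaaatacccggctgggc

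Hsph1, an HSP110 nucleotide exchange factor whose window holds matches at its end and upstream, was at 582 and 901 CPM in wild-type and 257 and 395 CPM in knockout endothelium. In podocytes it was at 853 and 751 CPM against 671 and 619 CPM. The libraries separated in both cell types, more widely in endothelium, and the log2 fold change was -0.75 (SE 0.24). Dnajb1, the HSP40 co-chaperone that delivers clients to HSP70, was at 1632 and 2094 CPM against 746 and 1144 CPM in endothelium and 3070 and 2420 CPM against 2345 and 1726 CPM in podocytes. Its log2 fold change was -0.71 (SE 0.23), close to that of Hsph1, and neither of its promoter windows held a match. A relation between matches and fold changes was not tested.

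Hspb1, the small heat shock protein HSP27, was at 810 and 1078 CPM against 539 and 745 CPM in endothelium. In podocytes it was at 707 and 483 CPM against 365 and 544 CPM, where the genotypes overlapped. Hspe1, the mitochondrial co-chaperonin, was at 121 and 191 CPM against 59.6 and 133 CPM in endothelium and 188 and 151 CPM against 130 and 166 CPM in podocytes, overlapping in both. Their log2 fold changes were -0.47 (SE 0.21) and -0.45 (SE 0.26).

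The remaining members ran from larger differences to values near 0. Dnajb4 and Bag3, co-chaperones of HSP70, had log2 fold changes of -0.61 and -0.64, and Hspa8, the constitutive HSP70, had -0.50. The inducible pair Hspa1a and Hspa1b, whose near-identical sequences make the split of reads between them uncertain, had -0.46 and -0.52. The smallest difference was that of Hsf1, the transcription factor itself, at -0.11 (SE 0.14). Summed over the list, the level was 35262 and 40468 CPM against 20930 and 29702 CPM in endothelium and 33836 and 27324 CPM against 21537 and 24403 CPM in podocytes.

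The chaperone difference depended on single libraries and on how abundant genes were scaled. The 10 members under an unadjusted p of 0.05 became 4 without knockout endothelium 2, 5 without wild-type endothelium 3, 5 without wild-type podocyte 2 and 6 without wild-type endothelium 2, and the list median stayed between -0.56 and -0.34 over the 8 libraries left out in turn. Under cyclic loess the list median was -0.14, 4 members had an unadjusted p under 0.05, 1 was separated in both cell types, and 11 were lower in both. With library size alone the median was -0.23, with 4 members under 0.05, 2 separated and 10 lower in both.

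**Figure D5:**
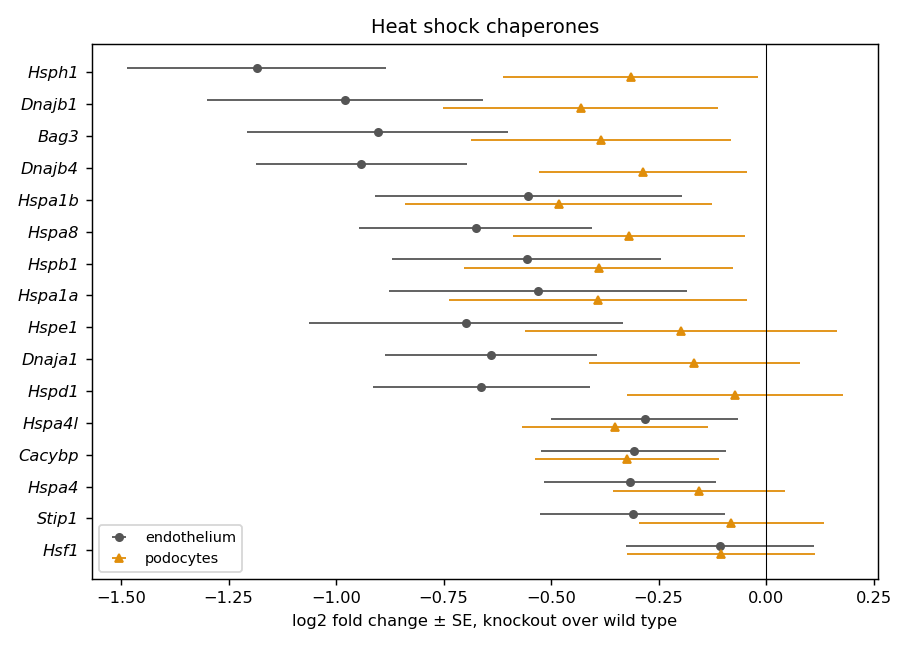
Log2 fold change of knockout over wild type, with its SE, for the 16 tested heat shock chaperones, in endothelium (grey circles) and podocytes (orange triangles). All 16 lie below 0 in both cell types, with medians of -0.60 in endothelium and -0.32 in podocytes.

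Cholesterol synthesis genes, which sterol-sensing transcription factors raise when membrane cholesterol is low, had lower fitted values for most members, with the larger median in endothelium. Of 20 listed, 19 were tested, and 17 had a lower fitted value, with a median log2 fold change of -0.41, -0.66 in endothelium and -0.16 in podocytes. In 13 genes the fitted value was lower in both cell types, 8 were separated and lower in both, and 8 had an unadjusted p under 0.05. Against all genes, 6.04% were separated and lower and 4.19% were lower at that p. The list has 7 members in the top quintile. There, 17.2% of genes were separated and lower, 11.7% were lower at that p and 88.0% had a lower fitted value. Most of the other members are in the quintile below, where these shares were 7.98%, 6.31% and 70.2%.

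Dhcr7, which catalyses the last reduction to cholesterol, was at 21.7 and 17.01 CPM against 6.98 and 14.5 CPM in endothelium and 48.1 and 36.7 CPM against 15.8 and 26.7 CPM in podocytes. Library 2 was the lower knockout library in both cell types, and the log2 fold change was -0.93 (SE 0.26). Msmo1, a sterol C4-methyl oxidase, was at 165 and 164 CPM against 70.9 and 138 CPM in endothelium and 164 and 157 CPM against 100.3 and 118 CPM in podocytes, with -0.61 (SE 0.19). Hmgcs1, a synthase of the mevalonate pathway, had a log2 fold change of -0.40 (SE 0.17). The 8 members under an unadjusted p of 0.05 became 2 without knockout endothelium 2, 4 without wild-type endothelium 3 and 5 without wild-type endothelium 2. Under cyclic loess the list median was -0.26, with 3 members under an unadjusted p of 0.05 and 2 separated and lower. With library size alone it was -0.19, with 1 member under 0.05 and none separated and lower.

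Chaperones and enzymes of the endoplasmic reticulum had a median log2 fold change of -0.28. Of 16 tested, 14 had a lower fitted value, as did 88.0% of all genes in the top quintile, which holds 13 of the 16, and 7 were separated and lower, and 4 had an unadjusted p under 0.05. Dnajb9, a co-chaperone of BiP, was at 121 and 125 CPM against 91.3 and 87.4 CPM in endothelium and 163 and 151 CPM against 134 and 114 CPM in podocytes. In the top quintile 17.2% of genes were separated and lower, and 11.7% were lower at an unadjusted p under 0.05. Under cyclic loess the median was 0.01, with no member under an unadjusted p of 0.05 and 1 separated and lower, and with library size alone neither count had a member. The 4 members became 1 without wild-type podocyte 2 and 2 without wild-type endothelium 2 or knockout podocyte 3.

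Immediate-early genes, which cells switch on within minutes of a stimulus or of tissue dissociation, had different medians in the 2 cell types. Of 22 tested, 21 had a lower fitted value over both cell types together, but the median was -0.64 in endothelium and 0.04 in podocytes. Only 10 were lower in both, 2 were separated in both (Ier3 and Ccn1), and 5 had an unadjusted interaction p under 0.05, none of them after adjustment. The list has 15 members in the top quintile, so 2 of 22 separated stands beside 17.2% there and 6.04% of all genes, and 5 of 22 beside 2.6% of all genes for the interaction. Distal tubule markers had the same form, with 12 of 12 lower over both cell types together and 6 lower in both. Their medians were -1.18 in endothelium and 0.01 in podocytes. The top quintile, where 88.0% of genes had a lower fitted value, holds 11 of these 12 markers and 15 of the 22 immediate-early genes.

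The lists closest to endomucin itself were close to balanced. Of 31 tested glycocalyx genes, 15 had a higher and 16 a lower fitted value, with a median of 0.00 that was 0.22 with library size alone and 0.11 under cyclic loess. Gpc1, a heparan sulfate glypican, was at 37.0 and 23.8 CPM against 17.5 and 18.5 CPM in endothelium and 330 and 216 CPM against 148 and 200 CPM in podocytes, with a log2 fold change of -0.70 (SE 0.20). Esm1, the proteoglycan endocan, was at 46.7 and 35.1 CPM against 228 and 71.8 CPM in endothelium and at 2.73 CPM or less in podocytes, so its log2 fold change of 1.39 (SE 0.40) rested on endothelium. Among the 8 sialomucins tested, Cd164 was also separated and lower in both cell types, at -0.28 (SE 0.16), but it was -0.06 with library size alone and -0.01 under cyclic loess, and the list's count of separated and lower members fell from 2 to 1 under both and with DESeq2 size factors. Parm1 had 0.78 (SE 0.30) with overlapping libraries.

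Endothelial markers split into 11 higher and 8 lower, with a median of 0.04 that was -0.12 without knockout endothelium 2 and near 0 but negative with DESeq2 size factors. Vwf, the von Willebrand factor, was at 49.3 and 46.8 CPM against 87.4 and 61.6 CPM in endothelium and 9.20 and 14.7 CPM against 16.6 and 28.5 CPM in podocytes. It was the 1 marker separated and higher in both cell types, with a log2 fold change of 0.77 (SE 0.22). Of 25 angiogenesis genes, 16 had a higher fitted value, with a median of 0.20 (-0.08 without knockout endothelium 2) and none separated and higher in both cell types. Vegfa and Vegfd, at -0.61 and -0.79, were separated and lower in both, 2 of 25 beside 6.04% of all genes. Interferon response genes had 16 of 19 higher with a median of 0.10 (-0.06 without knockout endothelium 2), and cell cycle genes 15 of 20 with 0.24, with no member and 1 member (Cdk1) separated and higher, beside 5.74% of all genes. Ribosomal protein genes had a median of -0.06 over 88 genes, with -0.24 in endothelium and 0.11 in podocytes, and 0.18 with library size alone.

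Neighbours of Emcn on chromosome 3 had a split that followed the scaling. Within 10 Mb of its start 95 other genes were tested, and their median log2 fold change was -0.01 (0.21 with library size alone). At an unadjusted p under 0.05, 8 were higher and 4 lower, and 7 higher and 8 lower were separated in both cell types, beside 5.29%, 4.19%, 5.74% and 6.04% of all genes. With library size alone 12 higher and 1 lower were separated, and under cyclic loess 1 and 0. Papss1 (chr3:131564764-131643671), which makes the sulfate donor used by all sulfotransferases, was at 195 and 193 CPM against 99.1 and 160 CPM in endothelium and 192 and 186 CPM against 134 and 124 CPM in podocytes. Its log2 fold change was -0.56 (SE 0.16). Sgms2, a sphingomyelin synthase, had -0.84 (SE 0.29), with knockout endothelium library 2 at 48.6 CPM and library 3 at 158 CPM.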

How the data were processed

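Unnormalized gene-level counts of all libraries were deposited together in 1 file. The counter, annotation and strand setting are not given in the sources used here, and the genome build mm10 and the tool DESeq2 are named in the submitters' processing notes without a role. Of 22533 lines, 5207 (23.11%) were short and could not be assigned to columns, and 17326 complete lines were kept. The columns recorded as other in the deposited table also hold counts, with empty cells on the short lines. No row without a gene was found, and 617 complete lines had no symbol.

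Library sizes were scaled by TMM in edgeR 4.0.16 (R 4.3.3). Genes were kept by filterByExpr within groups, which left 16477. Genotype was tested over all 8 libraries with cell type as a covariate (glmQLFit and glmQLFTest), with Benjamini-Hochberg adjustment over all tested genes and a threshold of 0.05. Effects per cell type and the interaction came from a fit with 1 mean per group. SE was the absolute log2 fold change over the square root of F. Named genes were Emcn, the 10 higher and 10 lower genes of smallest p with knockout and wild-type libraries separated in both cell types, up to 3 per list, genes within 10 Mb of Emcn and sex-linked genes. Bag3, Hspa8, Hspa1a, Hspa1b, Hspb1, Hspe1, Hsf1, Hmgcs1, Mid1, Txndc5, Vegfd and Cldn5 fall outside that rule and were named after their values were seen. The genes named for opposite directions are also outside the rule. Values of some single genes of the cholesterol list are not reported here. The comparison, members and gene lists were chosen with earlier results of these data known. The test was checked on simulated counts. Gene positions came from the RefSeq table, which matched 15672 tested genes. Alternatives used DESeq2 1.42.0 and limma 3.58.1. CPM from these counts cover counting and library spread only, with 2 libraries per group.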

Additional observations from a re-analysis of the deposited data

How the results depend on the processing

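The number of genes past an adjusted p of 0.05 was 1 in the main analysis and 21 with DESeq2. It was 2 with the replicate block and 2 with a block within each cell type (chosen after seeing the data), the second gene in both being Cxcl13, at an adjusted p of 0.0102 and 0.0356. On summed libraries Cxcl13 had 0.517. The numbers were not taken as pairs because the labels do not say what a number stands for. Deviations of same-numbered libraries from their group means had correlations from -0.13 to 0.19 over the 6 pairs of groups. They were 0.188 within endothelium, 0.157 within podocytes, -0.129 between the wild-type groups and 0.111 between the knockout groups. The mitochondrial share and the distal tubule sum were higher in library 3, and Cxcl13 in library 2, in all 4 groups. The number of genes under an unadjusted p of 0.05 in both cell types with the same direction was 59, 37 with a mean of at least 5 CPM and 110 with the replicate block, and 26 to 128 with 1 library left out in turn. Against 872 higher and 691 lower genes under an unadjusted p of 0.05, there were 514 and 250 with a mean of at least 5 CPM, 775 and 1185 with the replicate block, 1238 and 1329 with the block within each cell type, 1137 and 1494 with limma quality weights, 1172 and 394 with libraries summed, 570 and 483 under cyclic loess and 1615 and 54 with library size alone. The interaction count was 0 in every alternative. The log2 fold change of Emcn ran from -3.58 to -3.17 and its adjusted p from 9.9e-39 to 0.0138, the latter with endothelium and podocyte libraries of 1 number and genotype summed, 2 against 2. Reversals among named genes were confined to 4 that did not pass any threshold. Xist ran from -0.12 to 0.27, mt-Rnr2 from -0.64 to 0.17 and mt-Rnr1 from -0.59 to 0.16 with 1 library left out. Under cyclic loess, also chosen after seeing the data, Sparc was 0.11, mt-Rnr2 0.078 and mt-Rnr1 0.022, and with library size alone mt-Rnr1 was 0.022. The cause was not tested. Leaving out a library leaves 1 in that group, whose spread is then taken from the others. Low counts limit Rtp1, Or4a39 and Ereg, where 3 counts were worth 0.186 to 0.258 CPM.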

Other observations

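Immune markers had low levels in all libraries, with sums of 45.6 to 138 CPM over 11 tested genes. Cd209a, a lectin of dendritic cells, had higher knockout libraries in both cell types, at 1.22 and 0.94 CPM against 4.23 and 2.49 CPM in endothelium and at 1.99 and 2.06 CPM in knockout podocytes, where wild type had 0 counts. Csf1r, the receptor of macrophage growth factors, was at 8.74 and 4.99 CPM against 10.4 and 12.3 CPM in endothelium and 74.5 and 67.9 CPM against 107 and 76.4 CPM in podocytes. Lyz2, the lysozyme of macrophages, had a log2 fold change of -0.82 (SE 0.36) with overlapping libraries, so the list did not move in 1 direction. Its median was 0.34, and -0.01 under cyclic loess.

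Hspg2, Calb1 and Arhgap24 separated in both cell types. Calb1 was the 1 distal tubule marker of 12 that was separated and lower. Of 14 slit diaphragm and basement membrane genes, Hspg2 was the 1 separated and higher, beside 5.74% of all genes. Arhgap24 was 1 of 2 separated and lower. The top quintile, where 17.2% of genes were separated and lower, holds 11 of the 12 and 13 of the 14. Hspg2, the basement membrane proteoglycan perlecan, was at 50.2 and 46.4 CPM against 82.3 and 65.0 CPM in endothelium and 17.8 and 16.8 CPM against 27.3 and 17.9 CPM in podocytes. Calb1, the calcium-binding protein of distal tubule, was at 2231 and 2439 CPM against 556 and 2191 CPM in endothelium and 2477 and 3898 CPM against 867 and 1351 CPM in podocytes, with a log2 fold change of -1.14 (SE 0.38). Arhgap24, a podocyte regulator of Rac1, was at 395 and 381 CPM against 244 and 286 CPM in endothelium and 1959 and 1467 CPM against 1232 and 1316 CPM in podocytes. None passed the adjusted threshold by edgeR, and the adjusted p of each was 0.523.

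The share of genes with an unadjusted p under 0.05 ran from 7.69% on chromosome 19 to 11.6% on chromosome X. Chromosome 3, which holds Emcn, had 11.4%, beside 11.2% on chromosome 16 and 10.9% on chromosome 6. Of all tested genes, 5.29% were higher and 4.19% lower at that p.

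Of the remaining lists, slit diaphragm and basement membrane genes had 12 of 14 members with a lower fitted value and a median of -0.29, and 13 of the 14 are in the top quintile by abundance, where 88.0% of genes had a lower fitted value. Matrix genes had 7 of 8 lower with a median of -0.21, which was 0.06 under cyclic loess. Junction genes had 7 higher and 8 lower, vasoactive genes 7 and 7, and proximal tubule markers 5 and 4.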
